A study of Mus musculus with 6 samples.

Results

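Rbm3, Cirbp and Rtn3 were followed in the substantia nigra of mice on intermittent fasting or fed ad libitum. They were taken by symbol, 3 genes of 19251 in the count table, and all 3 passed the filter on low counts. Rbm3 and Cirbp are the cold-inducible RNA-binding protein genes, and Rtn3 is a gene whose translation RBM3 is known to raise in mice. The 3 were chosen by name with their log2 fold changes between these diets, in the same libraries, already known. That difference is therefore given for them as a description, and no test of it is used as support.

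Polyadenylated RNA was sequenced from 6 libraries. The 3 intermittent fasting libraries came from C57BL/6 mice with rAAV-A53T-aSynuclein that went without food for 24 hours on 3 days a week, with each fast starting 2 hours before lights off. The 3 ad libitum libraries came from C57BL/6 mice with rAAV-A53T-aSynuclein that always had food and were moved between cages on the same schedule. Both diets began 2 weeks after surgery and lasted 10 weeks. The vector is a recombinant adeno-associated virus (rAAV) that carries alpha-synuclein with the A53T change of inherited Parkinson's disease, so both groups had the model and no library from mice without the vector was compared. The sources used here do not give age, sex, the promoter in the vector, the number of mice per library, body temperature or how long after a fast tissue was taken.

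CIRBP and RBM3 are small proteins with an RNA recognition motif and a glycine-rich tail. Mild cooling raises both in mammalian cells while most protein synthesis slows, and heat lowers them; they bind messenger RNAs and affect their stability, processing and translation. In mouse models of prion disease and Alzheimer's disease RBM3 is known to preserve synapses, an effect that depends on raised translation of RTN3. RTN3 is a reticulon, a hairpin protein that curves the tubules of the endoplasmic reticulum (ER), serves as a receptor for the autophagy of those tubules and binds the secretase BACE1.

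The coding sequences of Rbm3 and Cirbp show the kinship of both genes and how far sequencing can tell them apart. Aligned end to end, the coding sequences, of 465 bases in Rbm3 and 519 bases in Cirbp, were identical at 332 of 453 paired bases (73.3%). The most similar stretch of 60 bases without a gap, bases 87 to 146 of both coding sequences, had 47 identical bases, shown here in capitals (GENCODE M21 transcripts, GRCm38, 5′ to 3′).

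Rbm3: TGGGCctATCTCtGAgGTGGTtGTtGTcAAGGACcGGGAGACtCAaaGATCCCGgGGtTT

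Cirbp: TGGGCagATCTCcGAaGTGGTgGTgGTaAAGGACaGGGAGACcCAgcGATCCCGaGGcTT

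The longest run of bases common to any pair of Rbm3 and Cirbp transcripts was 11 bases. No word of 31 bases of Cirbp or Rtn3 occurred in a transcript of another gene. Of the 435 such words in the coding sequence of Rbm3, 404 (92.9%) also occurred in processed pseudogenes, of which Rbm3-ps held 372. Over all Rbm3 transcripts, which also hold untranslated sequence, 477 of 4891 such words (9.75%) occurred in another gene. These were 445 other genes, 390 of them in the count table. None of the 5 pseudogenes that share words with the coding sequence was in the count table, so no separate value of them was available. The Rbm3 count is uncertain to the extent that reads were shared with these pseudogenes or other genes. Rbm3 is overlapped on the other strand by Rbm3os. Rtn3 is overlapped on the other strand by 2700081O15Rik, whose counts were 1007, 1049 and 1016 under fasting and 938, 1143 and 1162 ad libitum. The sources used here do not say whether counting used strand. Counts are per gene, so they do not separate coding transcripts from those annotated as targets of nonsense-mediated decay, which were 2 of 11 for Rbm3 and 1 of 7 for Cirbp.

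The promoter of Cirbp is shown because it holds the element through which mild cold is known to act on this gene in cultured mammalian cells. The table of RefSeq promoters matched 2 of the 3 genes, Cirbp with 2 start sites and Rtn3 with 1. The 250 bases before the first start site of Cirbp (GRCm38.p6, chr10:80167589-80167838, plus strand) are printed with that element, TCCCCGCC, and both CCAAT matches in capitals.

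Cirbp: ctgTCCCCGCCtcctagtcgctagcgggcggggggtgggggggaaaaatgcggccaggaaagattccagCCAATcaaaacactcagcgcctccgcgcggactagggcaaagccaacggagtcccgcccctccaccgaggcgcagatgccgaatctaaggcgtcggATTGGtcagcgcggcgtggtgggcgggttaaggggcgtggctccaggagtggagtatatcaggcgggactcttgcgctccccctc

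TCCCCGCC lay 247 to 240 bases before the start site, on the coding strand. Searched on both strands in the 250 bases before each start site, it was present in 4.64% of 32851 promoters, and CCAAT in 33.9%. CCAAT lay 181 to 177 bases before the start site of Cirbp on the coding strand and 85 to 81 bases before it on the other strand. These matches did not overlap. The cAMP response element TGACGTCA (1.55% of promoters), the paired heat shock unit GAANNTTC (6.69%) and the E-box CACGTG (6.02%) had no match in this window. Neither the second Cirbp window nor that of Rtn3 matched any of these 5 motifs. A match describes the letters and does not show that a factor binds.

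Depth was similar in all libraries, at 42990234 to 46594066 total estimated counts under fasting and 46337950 to 48179706 ad libitum. Libraries were more alike within the fasting group (chi-square per degree of freedom 8.28 to 19.9) than within the ad libitum group (43.5 to 78.8). The ad libitum libraries did not form a group of their own. Ad libitum replicate 1 was closer to the fasting libraries (29.3 to 31.5) than to ad libitum replicates 2 and 3 (78.8 and 46.2). Ad libitum replicate 3 was closest to fasting replicate 2 (30.8). Nothing in the labels says that each library came from a separate mouse, so errors and p-values measure the spread between these libraries, which may be in part technical. All 6 dopaminergic neuron markers looked at, among them Th and Slc6a3, were detected, with summed levels of 495 to 1008 CPM (counts as a share of library size, scaled with TMM) under fasting and 542 to 1447 CPM ad libitum. Of these 6, 5 had lower mean levels under fasting and 0 were called, with a median log2 fold change of -0.24. Slc6a3 was at 222, 403 and 180 CPM in fasting replicates 1, 2 and 3. In ad libitum replicates 1, 2 and 3 it was at 247, 240 and 653 CPM. Th was likewise highest in fasting replicate 2 and ad libitum replicate 3 within each diet, at 189 and 236 CPM. All 6 oligodendrocyte markers and all 6 microglial markers had lower mean levels under fasting, with 0 of each called by edgeR. Their summed levels did not overlap between diets, at 9434 to 11839 CPM under fasting and 13352 to 18182 CPM ad libitum for oligodendrocytes, and 168 to 174 CPM under fasting and 207 to 304 CPM ad libitum for microglia. The 6 endothelial markers were also all lower, at 144 to 155 CPM under fasting and 165 to 196 CPM ad libitum in sum. Of 6 astrocyte markers 5 were lower and 0 were called, with a median log2 fold change of -0.24. Of 6 general neuron markers 1 was lower and 0 were called, with a median of 0.12. All 5 erythroid genes were lower and 0 were called, with a median of -1.13 and sums that overlapped between diets. Across all genes 50.9% had a log2 fold change below 0, and edgeR called 0.497%. Ad libitum replicate 2 and fasting replicate 1 each stood apart in some markers of neighbouring regions. Chat, of cholinergic neurons, was at 0.341, 0.393 and 1.24 CPM in the fasting libraries, and at 0.656, 22.9 and 2.14 CPM in ad libitum replicates 1, 2 and 3. Pmch, of the lateral hypothalamus, was at 62.2, 125 and 115 CPM in the fasting libraries, and at 22, 432 and 1.18 CPM in ad libitum replicates 1, 2 and 3. Oxt, also of the hypothalamus, was at 33.4, 0.162 and 2.90 CPM in fasting replicates 1, 2 and 3. In ad libitum replicates 1, 2 and 3 Oxt was at 0.339, 2.44 and 0.192 CPM. Avp was also highest in fasting replicate 1, at 9.60 CPM. The part of cell makeup in the results below was not tested, and in bulk tissue fewer cells of a type and less RNA per cell cannot be told apart.

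Rbm3 (ENSMUSG00000031167, chromosome X) was about 2 times as high under fasting. The estimated counts were 6174, 5061 and 5956 in fasting replicates 1, 2 and 3, against 3204, 3002 and 3141 in ad libitum replicates 1, 2 and 3. After scaling the levels were 140.4, 117 and 127 CPM under fasting, against 67.8, 62.0 and 67.1 CPM ad libitum. Every fasting library lay above every ad libitum library, and the lowest fasting value exceeded the highest ad libitum value by 49.2 CPM. The means were 128 ± 11.7 CPM under fasting and 65.7 ± 3.19 CPM ad libitum (SD, n = 3 each). The log2 fold change was 0.96 with an SE of 0.08, a 1.95-fold difference, and single pairs of libraries differed by 1.72-fold to 2.26-fold.

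Cirbp (ENSMUSG00000045193, chromosome 10) showed the same direction with a smaller difference. Its levels were 96.1, 85.9 and 91.6 CPM in fasting replicates 1, 2 and 3, against 57.6, 57.9 and 60.2 CPM in ad libitum replicates 1, 2 and 3. The groups did not overlap, and the gap between them was 25.6 CPM. The means were 91.2 ± 5.11 CPM under fasting and 58.6 ± 1.43 CPM ad libitum (SD, n = 3 each). The log2 fold change was 0.64 with an SE of 0.06, a 1.56-fold difference. Cirbp had a coefficient of variation of 5.60% among fasting libraries and 2.45% among ad libitum libraries, and Rbm3 had 9.16% under fasting and 4.86% ad libitum.

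Both cold-inducible genes had their highest value in fasting replicate 1 and their lowest fasting value in fasting replicate 2. Rbm3 differed more than Cirbp between diets, so their ratio differed too. The ratio of Rbm3 to Cirbp CPM was 1.46, 1.36 and 1.39 in the fasting libraries and 1.18, 1.07 and 1.11 in the ad libitum libraries, with means of 1.40 ± 0.0517 under fasting and 1.12 ± 0.0537 ad libitum (SD, n = 3 each).

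Rtn3 (ENSMUSG00000024758, chromosome 19) was far more abundant and differed little. Its levels were 1200.4, 1198 and 1136 CPM in fasting replicates 1, 2 and 3, against 1122, 983 and 1068 CPM in ad libitum replicates 1, 2 and 3. The groups did not overlap, but fasting replicate 3 and ad libitum replicate 1 lay only 14.2 CPM apart. The means were 1178 ± 36.3 CPM under fasting and 1058 ± 70.2 CPM ad libitum (SD, n = 3 each), a difference of 0.16 on the log2 scale with an SE of 0.07. Ad libitum replicate 2, which stood apart in Chat and Pmch, was the lowest for Rtn3, and without it the log2 fold change was 0.10. The part of those markers in this difference was not tested. The files hold RNA levels only, so translation of Rtn3 was not measured.

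**Figure D1:**
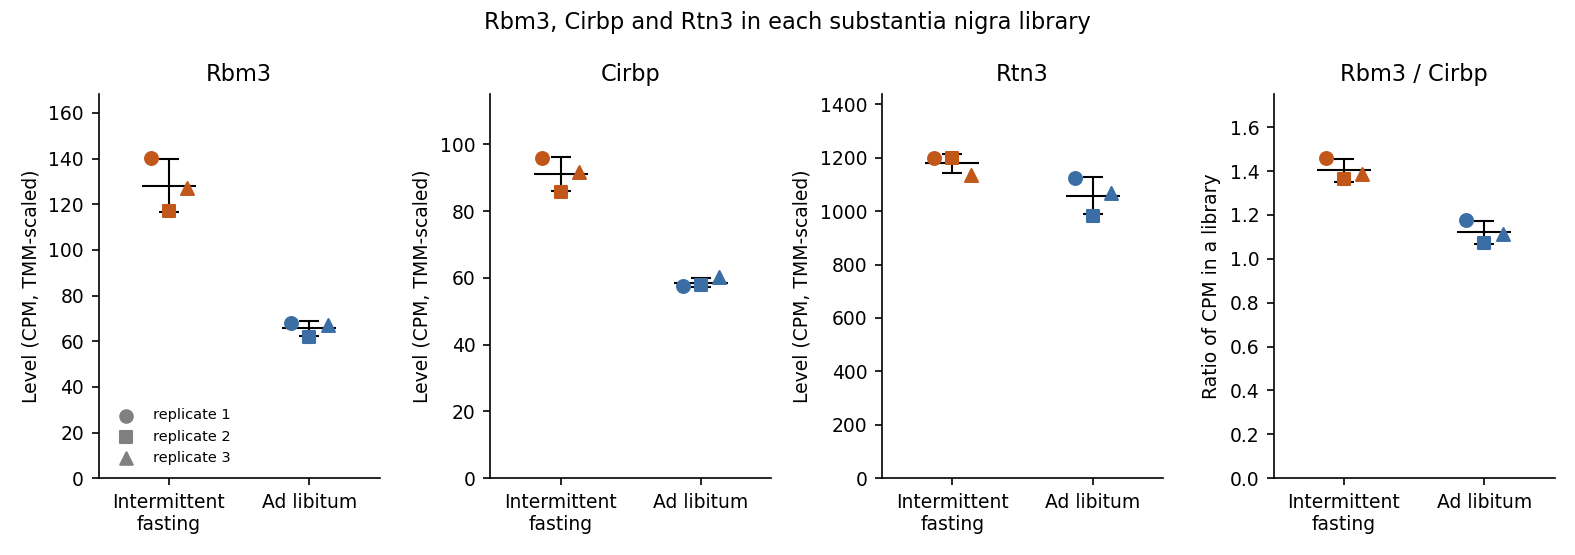
Levels of Rbm3, Cirbp and Rtn3 (CPM after TMM scaling) and the ratio of Rbm3 to Cirbp CPM in each library, with intermittent fasting left of ad libitum; points are libraries, marker shapes are replicate numbers, horizontal lines are means and bars are SD (n = 3). Rbm3 is at 117 to 140.4 CPM under fasting and at 62.0 to 67.8 CPM ad libitum, while the Rtn3 groups are 14.2 CPM apart at their nearest points.

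In the fit of all 19109 genes tested, edgeR called 2 of the 3 genes, Rbm3 and Cirbp, both higher under fasting, where a call is an adjusted p below 0.05. Across all genes 0.497% were called and 0.147% were called higher. For all 3 genes the fasting libraries lay wholly above the ad libitum libraries, which held for 12.5% of all genes. Both calls were lost when fasting replicate 1, fasting replicate 3 or ad libitum replicate 3 was left out. As the genes were chosen with this contrast known, nothing is read from these counts.

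Set against transcript length, Rtn3 had the highest level and the order of Rbm3 and Cirbp depended on the length taken. Per kilobase of the longest to the shortest complete coding transcript, Rtn3 was at 235 to 490.4 CPM under fasting and 211 to 440.3 CPM ad libitum. Rbm3 was at 45.9 to 132 CPM per kilobase under fasting and 23.5 to 67.8 ad libitum. Cirbp, with 1 complete coding transcript, was at 69.0 CPM per kilobase under fasting and 44.3 ad libitum, within the range of Rbm3 in both diets.

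The genes whose levels followed Rbm3 and Cirbp most closely over the 6 libraries included the other of the pair. Pearson's r of log2 CPM was taken with 15552 genes of at least 1 CPM on average. It is a description without a p, because the points share the diet contrast and their library. The 5 genes most like Rbm3 were Etnppl, an enzyme of ethanolamine phosphate breakdown (r = 0.997), 2210408I21Rik (r = 0.996), Smad2, a signal carrier of the TGF-beta pathway (r = 0.996), Cirbp (r = 0.996) and Igsf8, a membrane protein of the immunoglobulin superfamily (r = 0.994). For Cirbp they were Igsf8 (r = 0.998), the splicing-related gene Scaf1 (r = 0.996), Rbm3 (r = 0.996), Etnppl (r = 0.996) and Pcyox1, an oxidase of prenylated cysteine (r = 0.995).

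Etnppl was at 168, 142 and 158 CPM in fasting replicates 1, 2 and 3, against 95.6, 93.0 and 93.5 CPM in ad libitum replicates 1, 2 and 3, a difference of 0.73 on the log2 scale. It is known as an astrocyte gene. Of the 6 astrocyte markers, Gfap was at -1.51, Aqp4 at -1.01 and Gja1 at -0.34 on the log2 scale. Aldh1l1 was at -0.13, Slc1a2 at -0.10 and Slc1a3 at 0.18. The part of astrocyte content in the Etnppl difference was not tested. Smad2 had a smaller difference, 54.0 ± 0.860 CPM under fasting and 46.3 ± 0.516 CPM ad libitum (SD, n = 3 each), 0.22 on the log2 scale. Genes chosen for likeness to Rbm3 must differ between diets as it does, so no test is given for them.

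The pattern of Rtn3 was another one. Its r was 0.82 with Rbm3 and 0.78 with Cirbp. The genes most like Rtn3 were Ssb, the RNA-binding La antigen (r = 0.996), Mfn2, a GTPase of mitochondrial fusion (r = 0.995), Map2k4, a kinase of the JNK pathway (r = 0.993), Tpr of the nuclear pore (r = 0.993) and Atp6v1b2 of the proton pump of lysosomes and synaptic vesicles (r = 0.991). In this group ad libitum replicate 2 was lowest throughout.

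**Figure D2:**
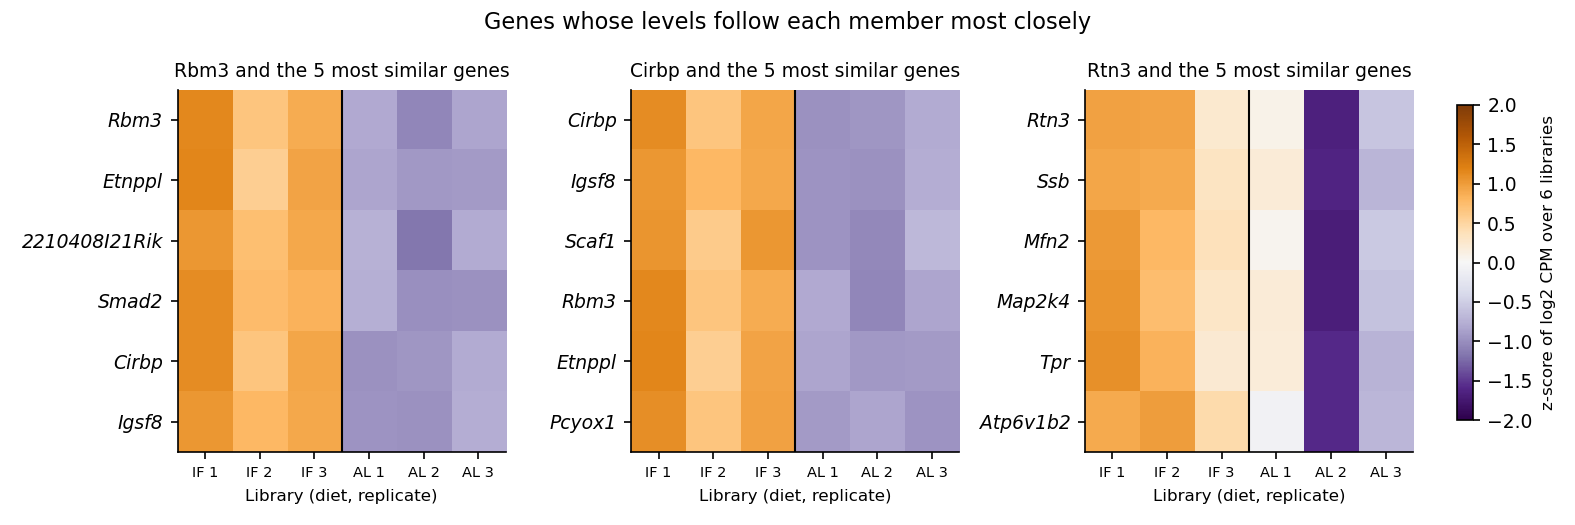
Each block shows 1 of the 3 genes and the 5 genes with the highest Pearson r with it, as z-scores of log2 CPM over the 6 libraries (orange high, purple low); columns are libraries, IF for intermittent fasting and AL for ad libitum, with the replicate number. Rbm3 and Cirbp split by diet, with fasting replicate 1 highest, while Rtn3 and its neighbours are lowest in ad libitum replicate 2.

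Heat shock and chaperone genes, some of which heat induces while it lowers Rbm3 and Cirbp, mostly had lower values under fasting, but none passed the test. Of 23 genes, 0 were called by edgeR, 7 had an unadjusted p below 0.05, 3 were called by DESeq2 and 0 by limma-voom. Across all genes edgeR called 0.497%, 20.4% had an unadjusted p below 0.05, DESeq2 called 12.9% and limma-voom 0.167%. The log2 fold change was below 0 in 19 of 23 (82.6%), against 50.9% of all genes. The median was -0.14, against -0.005 over all genes. The 4 genes above 0 were Hsf2 at 0.16, Dnajb1 at 0.08, Dnajb4 at 0.07 and Dnaja1 at 0.03. Hsf2 was among the 7 at an unadjusted p below 0.05, and its groups did not overlap, with fasting higher (edgeR adjusted p = 0.186). The groups did not overlap, with fasting lower, in 8 of 23, against 15% of all genes. Low values of chaperone genes in these libraries were known when this list was written, so these shares are no independent evidence.

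Chordc1, a co-chaperone of HSP90, was at 69.5 ± 4.16 CPM under fasting and 90.4 ± 6.64 CPM ad libitum (SD, n = 3 each), a difference of -0.38 on the log2 scale (edgeR adjusted p = 0.0685, SE 0.07). Cryab, a small heat shock protein that oligodendrocytes also express strongly, was at 71.2, 98.7 and 80.1 CPM in fasting replicates 1, 2 and 3, against 133, 184 and 120.3 CPM in ad libitum replicates 1, 2 and 3. The groups did not overlap, and the log2 fold change was -0.81 (edgeR adjusted p = 0.104, SE 0.20). Bag3, a co-chaperone of selective autophagy, was at -0.58 on the log2 scale (edgeR adjusted p = 0.138); Chordc1, Cryab and Bag3 were the 3 genes that DESeq2 called. Hspb8, the partner of Bag3, was at -1.01 on the log2 scale (edgeR adjusted p = 0.171), and its groups overlapped because fasting replicate 2 lay above ad libitum replicate 1.

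The stress-inducible HSP70 genes had low levels. Hspa1a was at 10.1 ± 0.887 CPM under fasting and 11.5 ± 1.10 CPM ad libitum, and Hspa1b at 4.06 ± 0.386 CPM under fasting and 6.43 ± 2.21 CPM ad libitum (SD, n = 3 each). These near-identical copies can share reads, so their values are uncertain, and neither passed (edgeR adjusted p = 0.383 and 0.207). Hsf1, the factor that switches on heat shock genes, was at -0.12 on the log2 scale (edgeR adjusted p = 0.376).

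**Figure D3:**
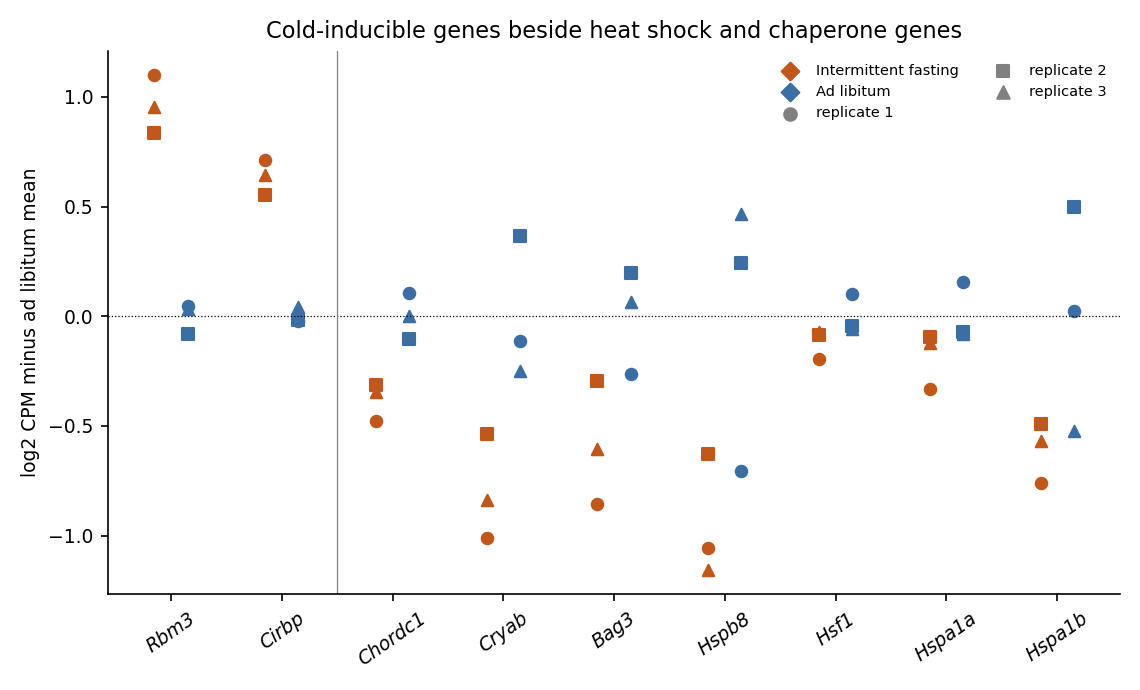
Level of each gene in each library as log2 CPM minus the mean of the 3 ad libitum libraries, with fasting libraries left of ad libitum libraries for each gene and marker shapes for replicate numbers. Rbm3 and Cirbp are 0.96 and 0.64 higher under fasting in the fit, whereas Cryab is at -0.81. The fasting and ad libitum points of Hspb8 and Hspa1b overlap. The 4 heat shock and chaperone genes above 0 in the fit are not drawn.

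Known regulators of Rbm3 and Cirbp had calls near the shares of all genes. Of 14 genes, 0 were called by edgeR, 3 had an unadjusted p below 0.05, 2 were called by DESeq2 and 0 by limma-voom, and the median log2 fold change was -0.03. The shares at an unadjusted p below 0.05 (21.4%) and by DESeq2 were near those of all genes, 20.4% and 12.9%. Across all genes edgeR called 0.497% and limma-voom 0.167%. The TrkB receptor, which raises RBM3 without cooling in mouse neurons through PLCG1 and CREB, had RNA levels (Ntrk2) of 829 ± 64.3 CPM under fasting and 783 ± 69.5 CPM ad libitum (SD, n = 3 each; edgeR adjusted p = 0.641). Its ligand gene Bdnf was at 14.7, 20.7 and 15.5 CPM in fasting replicates 1, 2 and 3, against 12.1, 10.9 and 16.6 CPM in ad libitum replicates 1, 2 and 3. These groups overlapped, and the log2 fold change was 0.36 with an SE of 0.20 (edgeR adjusted p = 0.367). Plcg1 was at 0.07 on the log2 scale (edgeR adjusted p = 0.507). Creb1 was at -0.16 (edgeR adjusted p = 0.167).

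Sp1, whose protein binds the cold element of the Cirbp promoter in cultured cells, was at 32.9 ± 0.945 CPM under fasting and 40.1 ± 2.32 CPM ad libitum (SD, n = 3 each), a difference of -0.29 on the log2 scale (edgeR adjusted p = 0.0798, SE 0.06). Hnrnph1, a splicing factor known in human cells to act on the exon that sends RBM3 RNA to decay, was at 189 ± 6.49 CPM under fasting and 218 ± 3.01 CPM ad libitum, a difference of -0.21 on the log2 scale (edgeR adjusted p = 0.103, SE 0.05). Sp1, Hnrnph1 and Creb1 had groups that did not overlap, with fasting lower. These were 3 of 14 genes (21.4%), against 15% of all genes. Sp1 and Hnrnph1 were the 2 genes that DESeq2 called. The temperature-sensitive splicing kinase genes Clk1 and Clk4 were at -0.18 and -0.02 on the log2 scale (edgeR adjusted p = 0.407 and 0.860).

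Other genes with a related RNA recognition motif or a cold shock domain had no called member. Of 10 listed, 9 were tested. Of these, edgeR called 0, 3 had an unadjusted p below 0.05, DESeq2 called 2 and limma-voom 0. Across all genes edgeR called 0.497%, 20.4% were at that p, DESeq2 called 12.9% and limma-voom 0.167%. Their log2 fold changes ran on both sides of 0, with a median of -0.05. Ybx3, a cold shock domain protein that represses translation, was at 21.9 ± 0.997 CPM under fasting and 28.2 ± 0.521 CPM ad libitum (SD, n = 3 each), a difference of -0.36 on the log2 scale (edgeR adjusted p = 0.0581, SE 0.06). Rbmxl1, a retrocopy of the splicing factor gene Rbmx with which it can share reads, was at 0.19 (edgeR adjusted p = 0.113); Ybx3 and Rbmxl1 were the genes that DESeq2 called. Rbmx itself was at 0.06, Ybx1 at -0.23 and Carhsp1 at -0.27 on the log2 scale, none called.

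Reticulons and the other genes that shape ER tubules showed no common direction. Of 20 genes, 0 were called by edgeR, 4 had an unadjusted p below 0.05, 3 were called by DESeq2 and 0 by limma-voom, with 10 log2 fold changes above 0 and 10 below. These counts were near the shares of all genes, 20.4% at that p, 12.9% by DESeq2, 0.497% by edgeR and 0.167% by limma-voom. Rtn1, a reticulon of neurons, was at 675 ± 23.2 CPM under fasting and 611 ± 52.7 CPM ad libitum (SD, n = 3 each), a difference of 0.14 on the log2 scale (edgeR adjusted p = 0.352). Rtn4, whose Nogo-A product is made by oligodendrocytes and neurons, was at 669 ± 21.6 CPM under fasting and 744 ± 13.2 CPM ad libitum, a difference of -0.15 on the log2 scale (edgeR adjusted p = 0.188). The value of Rtn3 lay beside that of Rtn1. Atl1, which fuses ER tubules, was at 0.30 on the log2 scale (edgeR adjusted p = 0.0685, SE 0.06) and Reep3, an ER membrane protein, at -0.35 on the log2 scale (edgeR adjusted p = 0.0859, SE 0.08), and DESeq2 called these and Rtn4. Bace1, whose product RTN3 binds, was at 94.3 ± 3.01 CPM under fasting and 106 ± 8.23 CPM ad libitum, a difference of -0.17 on the log2 scale (edgeR adjusted p = 0.227).

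The other receptors of ER autophagy had values near 0. Of 7 genes, 0 were called by edgeR, DESeq2 or limma-voom, which called 0.497%, 12.9% and 0.167% of all genes. At an unadjusted p below 0.05 there were 0, against 20.4% of all genes. The groups did not overlap in 2 genes with fasting lower and in 1 with fasting higher, against 15% and 12.5% of all genes. With 7 genes, nothing is read from these counts. Sec62 was at -0.13, Ccpg1 at -0.11, Retreg2 at 0.07, Tex264 at 0.07 and Retreg1 at 0.06 on the log2 scale.

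Clock genes are affected by CIRBP in mouse cells, where it supports Clock RNA. Of 19 genes, edgeR called 0, 5 had an unadjusted p below 0.05 (26.3%), DESeq2 called 4 and limma-voom 0. Across all genes edgeR called 0.497%, 20.4% were at that p, DESeq2 called 12.9% and limma-voom 0.167%. The median log2 fold change was 0.14, with 15 of 19 above 0 (78.9%), against 49.1% of all genes. Per2 (0.34), Cry1 (0.35), Per1 (0.32) and Cry2 (0.23), genes of the repressor arm, were those that DESeq2 called. Clock was at 104 ± 4.56 CPM under fasting and 107 ± 8.65 CPM ad libitum (SD, n = 3 each), a difference of -0.05 on the log2 scale (edgeR adjusted p = 0.732).

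Receptors of CIRBP released from cells, listed with partners of these receptors, were low, and 4 of 5 listed were tested. None was called by edgeR, DESeq2 or limma-voom, which called 0.497%, 12.9% and 0.167% of all genes. At an unadjusted p below 0.05 there was 1, Cd14 (25%), near the 20.4% of all genes. Tlr4 was at 1.11 ± 0.146 CPM under fasting and 1.63 ± 0.410 CPM ad libitum (SD, n = 3 each), a difference of -0.55 on the log2 scale (edgeR adjusted p = 0.262). Cd14 was at -0.59, Ly96 at -0.48 and Il6ra at -0.18 on the log2 scale. Tlr4, Cd14 and Ly96 are expressed by microglia, whose markers had lower summed levels under fasting; the part of this was not tested.

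**Figure D4:**
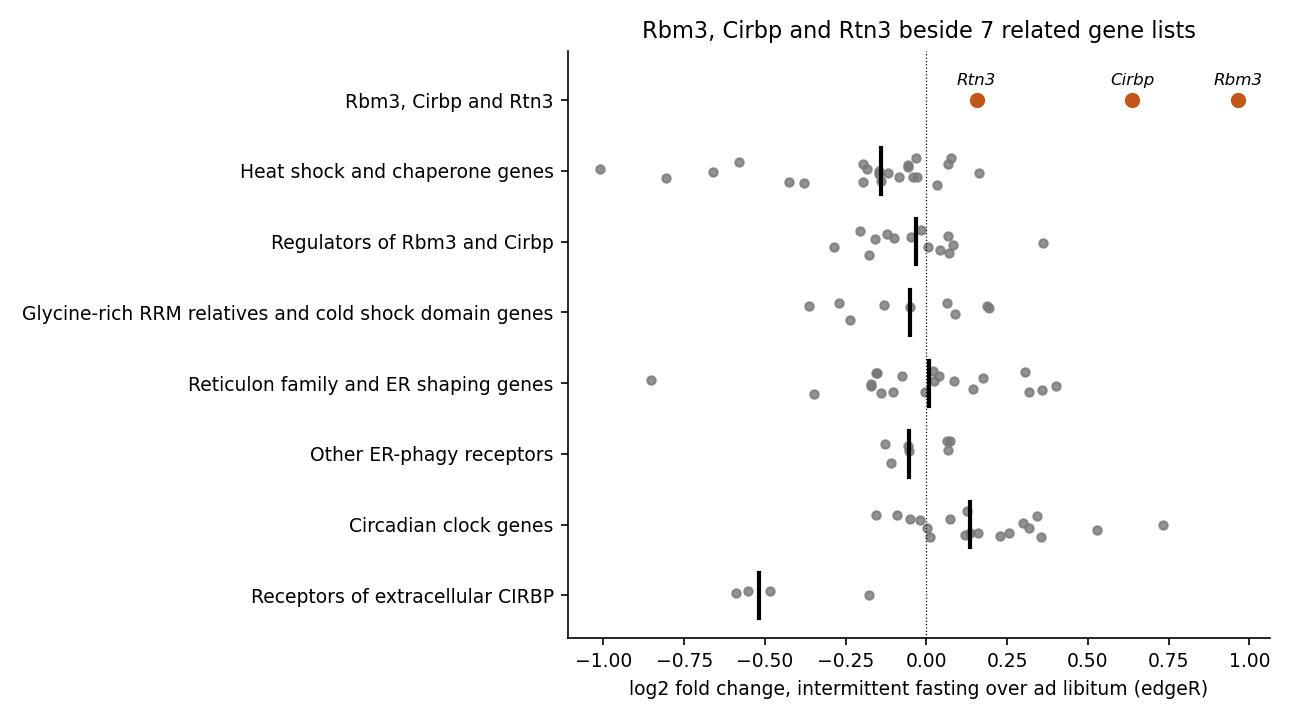
Log2 fold change of fasting over ad libitum from the fit of all genes, for Rbm3, Cirbp and Rtn3 (orange) and for each tested gene of 7 related lists (grey points, 1 gene each, jittered vertically; black bars are list medians). Rbm3 at 0.96 lies to the right of every listed gene, the heat shock median is -0.14 and the clock median is 0.14.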

How the data were processed

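The authors deposited a table of estimated counts per gene for 6 libraries, 3 on each diet, with 19251 genes as whole numbers that are not scaled between libraries; rounding changed none. The submitters' processing notes name Salmon, DESeq2 1.40.2 and GRCm39 (mm39), with no role or order; the sources used here do not give the annotation or the use of strand. Per the labels, substantia nigra RNA was made into libraries with a directional kit. Columns were tied to libraries by the labels, and 0 were left unused.

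The filterByExpr filter of edgeR 4.0.16 (R 4.3.3) kept 19109 genes. Diets were compared with TMM scaling and the two-sided robust quasi-likelihood test, Benjamini-Hochberg adjustment and a threshold of 0.05. Fold changes are fasting over ad libitum. The SE is the size of the log2 fold change over the square root of F. Log2 CPM used a prior count of 2. Alternatives were DESeq2 1.42.0, limma-voom (limma 3.58.1), other scaling, filters and shrinkage, a replicate block and leaving out each library. The fit was tested on simulated data.

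The 3 genes and the 7 lists were chosen with earlier results of these data known. Named list genes are those called, the 4 others of smallest p, some set in advance for their role and the 4 heat shock genes above 0. Sequences were read from GENCODE M21 and RefSeq (GRCm38), another build than that of the counts, so coordinates belong to that reference only.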

Additional observations from a re-analysis of the deposited data

How the results depend on the processing

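The log2 fold changes of Rbm3, Cirbp and Rtn3 kept their direction under all 14 alternatives, each moving by less than the spread between replicates. They ran from 0.89 to 1.03 for Rbm3, 0.59 to 0.68 for Cirbp and 0.10 to 0.20 for Rtn3, with the extremes from leaving out a library.

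The count of called genes depended on the tool and the libraries. Against 95 genes, DESeq2 called 2454, DESeq2 without the filter 1395, limma-voom 32 and edgeR without robust shrinkage 9. DESeq2 used a local dispersion trend on the filtered genes and a parametric one without the filter, so these settings differ in more than the filter. The share of calls that were higher was 29.5%, and 43.2%, 39.1%, 53.1% and 77.8% in these 4 settings. Leaving out a library gave 0 to 1187 calls. With edgeR the 1187 came without ad libitum replicate 1; leaving out ad libitum replicate 2 gave 45 and leaving out ad libitum replicate 3 gave 1. Without fasting replicate 1 edgeR called 0, with 2452 genes at an unadjusted p below 0.05, and without fasting replicate 3 also 0, with 2495 at that p.

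The counts of 0 called in the lists moved as follows. DESeq2 called 3 heat shock genes, 2 regulators, 2 cold shock and related genes, 3 reticulon and ER shaping genes and 4 clock genes, and without the filter and with the parametric trend, an alternative chosen after seeing the data, 4, 2, 1, 2 and 1. Leaving out a library gave 0 to 2 heat shock genes, 0 to 1 regulators and 0 to 1 cold shock and related genes. It also gave 0 to 3 reticulon and ER shaping genes and 0 to 1 receptors of released CIRBP or their partners. Every such call was made without ad libitum replicate 1. The cause was not tested.

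Replicate numbers are shared by the diets, but same-numbered libraries did not deviate together (r from -0.11 to 0.21 over 3 pairs), so the numbers were not taken as pairs. With the replicate block edgeR called 285 genes (22.1% higher) and 2 heat shock genes, Cryab and Bag3. RLE scaling, no filter and a mean count of at least 50 changed none of these results beyond 1.5 times. The smallest sum of counts of a gene in the count table was 60, so the setting without a filter could not examine genes below that. With 3 libraries a group, small differences such as that of Rtn3 are not resolved.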
